A study of Cavia porcellus with 27 samples.

Results

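The scaffold_53 stretches are 2 runs of CpGs that the authors listed as differentially methylated in the prefrontal cortex of juvenile guinea pigs. They lie at 5918184 to 6526087 and at 6676673 to 6977785, and the second is densely packed. They hold 1057 of the 2005 CpGs that the authors listed as differing between betamethasone and saline at postnatal day (PND) 14, or 52.7%, and 1057 of the 6627 listed at PND1 and PND14 together. The members were selected on the authors' calls of that contrast: every listed CpG between those positions belongs, 134 in the first stretch and 923 in the second. Differences between the treatments inside the stretches are therefore given as a description, with no test of the treatments over animals.

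Reduced representation bisulfite sequencing (RRBS), which reads methylation in CpG-rich restriction fragments, was applied to DNA of the prefrontal cortex of 27 female Cavia porcellus. Their mothers had been given betamethasone, a synthetic glucocorticoid used in human pregnancies at risk of preterm birth, or saline. The treatment was around gestational days 50 and 51, which are both recorded for every animal. At PND14 6 betamethasone offspring were compared with 7 saline offspring, and at PND1 another 7 with 7. Each table holds 1 coverage and 1 methylated read count per treatment and CpG, read here as sums over the animals of that treatment, so the variation between animals cannot be seen in any value given here. Betamethasone was taken as the case (code 1), since saline is the control in the series' own description. No header says so, and every direction below rests on that reading.

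In mammals a methyl group is placed on cytosine mainly where guanine follows it. Most CpGs of a genome are highly methylated, while CpG-dense islands at many promoters stay nearly free of methylation, and intermediate levels are common at enhancers, island edges and imprinted regions. Glucocorticoids act through a receptor that binds DNA, and the prefrontal cortex, which takes part in executive control and in the regulation of the stress axis, expresses that receptor. The samples are bulk tissue, in which a shift in the mix of cells and a change within 1 cell type cannot be told apart. The files' genome build is not stated, and the only gene table used here is of another assembly, so no gene, exon, promoter or sequence is assigned to any position.

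Depth was moderate and alike in the 2 treatments. Median coverage per CpG of the stretches was 67 summed reads for betamethasone (10 to 198) and 74 for saline (10 to 213), against 60.5 and 70 over the other 948 CpGs of the PND14 table. All 2005 listed CpGs have at least 10 reads in each treatment and an FDR of at most 0.0499 in the authors' deposited table. CpGs that were measured and not called are not analysed here, so densities below are densities of calls.

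The 2 stretches differed in how tightly the listed CpGs were packed. The first spans 607.9 kb with 2.20 listed CpGs per 10 kb, and 38 of its 61 windows of 10 kb hold none. The second spans 301.1 kb with 30.7 per 10 kb, and 2 of its 31 windows hold none. A gap of 150586 bp without a listed CpG separates them. The densest window of the first stretch holds 18 listed CpGs and that of the second 110. The last 30 kb of the second stretch alone hold 313, or 29.6% of all members, the first of them at 6949485. Outside the stretches the PND14 table lists 9 CpGs on this scaffold, 7 of them at least 3868263 bp before the first stretch and 2 at least 3208598 bp after the second.

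At the edges the values were close to the authors' FDR limit at 3 of the 4 ends. The first CpG of the first stretch, 5918184, was 77.1% methylated after betamethasone and 85.5% after saline, with an FDR of 0.0479 in the authors' deposited table. The last CpG of that stretch, 6526087, had 80.6% and 73.6%, with an FDR of 0.0466 in the authors' deposited table. The second stretch opened at 6676673 with 2.22% and 0.637% (FDR 0.00125 in the authors' deposited table) and closed at 6977785 with 43.7% and 54.6% (FDR 0.0437 in the authors' deposited table). The nearest listed CpGs of the scaffold outside the stretches, megabases away, were 2049921, at 79.2% and 75.9%, and 10186383, at 1.32% and 1.98%.

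Mean methylation over the 1057 CpGs was 57.0% after betamethasone and 56.9% after saline. The mean difference, betamethasone minus saline, was 0.079 percentage points with an SD over CpGs of 8.08. In the first stretch the means were 68.5% and 69.3% (-0.78 points, SD 6.95), and in the second 55.3% and 55.1% (0.20 points, SD 8.23). The other 948 listed CpGs of the same table had 62.8% and 63.5% (-0.60 points, SD 9.53). Neither stretch as a whole was thus shifted by more than 1 point in the summed reads, and the sign of the joint mean turned when shallow CpGs were left out: with at least 20 reads in both treatments it was -0.51 points over 891 CpGs.

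Gains and losses were nearly even in number. Of the 1057 CpGs, 521 were higher after betamethasone, 533 lower and 3 equal, where 47.3% of the whole PND14 table was higher and 52.3% lower. The first stretch had 62 higher and 72 lower, the second 459 higher and 461 lower. At least 10 points separated the treatments at 88 CpGs with a higher and 84 with a lower level after betamethasone, which is 8.33% and 7.95% of the members. Over all 2005 listed CpGs the same shares were 8.83% and 9.33%. At 20 points or more the members numbered 26 higher (2.46%) and 10 lower (0.946%), against 2.29% and 1.9% of the whole table. The members' share was below that of the whole table, which contains them, in 3 of these 4 cases.

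**Figure D1:**
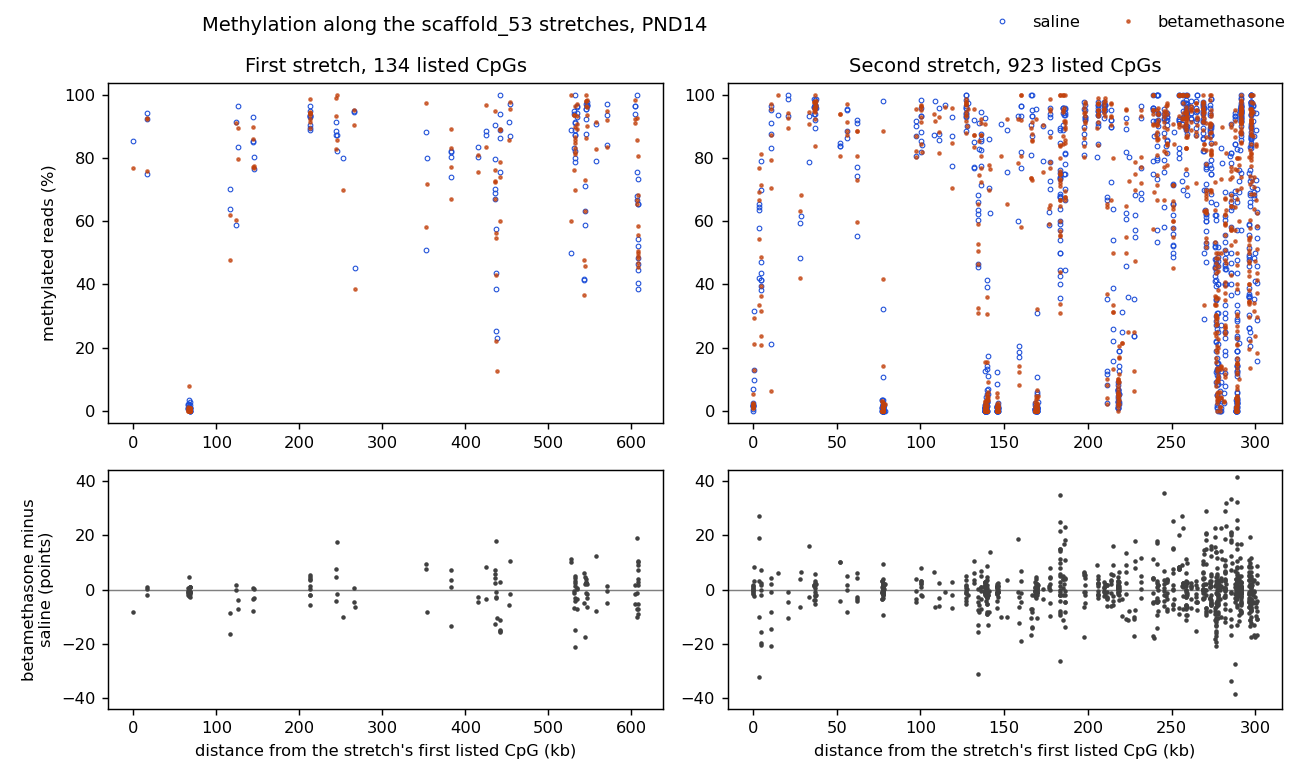
Methylated reads in percent (top) and the difference in percentage points (bottom) for each listed CpG of the first stretch (left) and the second stretch (right), against distance in kb from the stretch's first listed CpG. Saline levels are open blue circles and betamethasone levels filled orange points. The 2 treatments follow each other from near 0% to near 100%, and the differences lie on both sides of 0 along the 134 and the 923 CpGs.

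By level, the members fall into 3 classes: 290 CpGs (27.4%) with a mean of the 2 treatment levels below 20%, 319 (30.2%) from 20% to 80% and 448 (42.4%) above 80%. Elsewhere in the PND14 table the shares were 19.5%, 35.4% and 45.04%. The weakly methylated CpGs sat mainly in the second stretch, where they made up 29.4%, against 14.2% of the first. The largest block of listed CpGs at PND1, 1042 CpGs on scaffold_4 at 43966052 to 44592889, had 13.7% in this class. A second PND1 block on scaffold_4, 291 CpGs at 43658097 to 43745840, had 0. Those blocks averaged 68.9% and 69.3%, and 83.8% and 83.6%, after betamethasone and saline, so the second scaffold_53 stretch had the lowest mean level of these 4 runs.

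Differences were widest among the CpGs of intermediate level. There the treatment means were 56.3% and 55.6%, and the SD of the difference over CpGs was 12.1 points. Of these 319 CpGs, 58 were at least 10 points higher and 52 at least 10 points lower. Below 20% the means were 4.03% and 4.31% (-0.27 points, SD 3.91) with 3 such gains and 12 such losses. Above 80% they were 91.7% and 91.8% (-0.12 points, SD 6.25) with 27 gains and 20 losses. A level near either end leaves less room for a difference, and its counting error is smaller: the median counting SE was 1.79 points below 20%, 8.83 in the middle class and 4.67 above 80%.

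**Figure D2:**
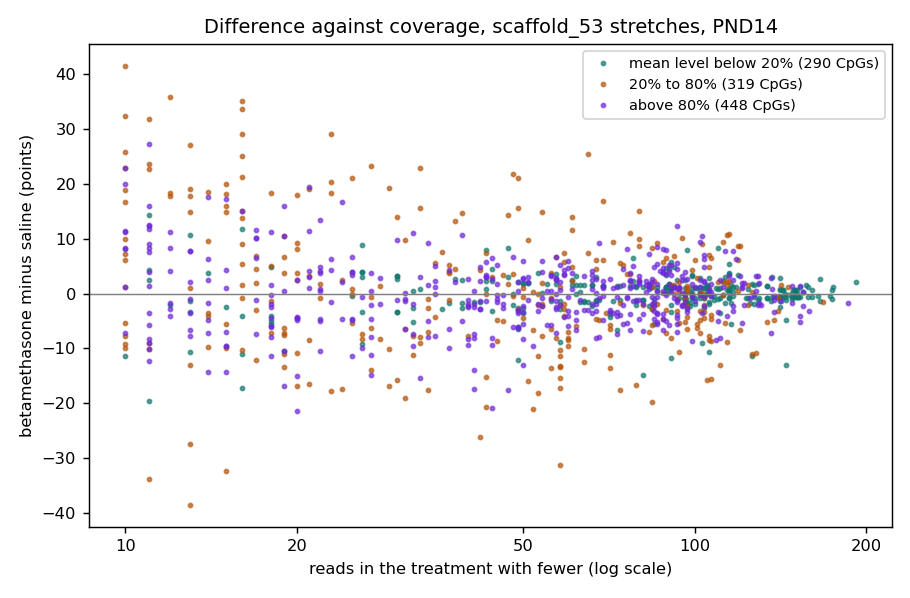
Difference in percentage points (betamethasone minus saline) of each of the 1057 CpGs against the summed reads of the treatment with fewer reads (log scale), coloured by class of mean level (290, 319 and 448 CpGs). The spread narrows from left to right, and no CpG with 100 or more reads in both treatments differs by over 15.7 points.

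Differences were larger where coverage was lower. At the 166 CpGs whose lesser coverage was 10 to 19 reads, the median size of the difference was 9.16 points against a median counting SE of 13.4. It was 4.52 points at 20 to 49 reads (237 CpGs), 2.71 at 50 to 99 (412 CpGs) and 1.53 at 100 or more (242 CpGs). A difference of at least 20 points was seen at 36 CpGs, of which 22 were among those 166. The shallow CpGs were on average higher after betamethasone, at 67.4% against 64.2% (3.23 points, SD 13.7), while each deeper class was lower, at -0.59, -0.58 and -0.31 points. Shallow CpGs elsewhere in the PND14 table had a mean of -0.75 points. Over all members the median size was 3.27 points and the median counting SE 5.26 points.

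A further group of members rests on a single read. At 147 CpGs (13.9%) the 2 treatments together have 1 methylated read (119 CpGs) or 1 unmethylated read (28 CpGs). Elsewhere in the table such CpGs made up 11.1%. Their differences had a median size of 1.28 points and a maximum of 9.09, and their first p-values in the authors' deposited table ran from 0.171 to 0.324. Their FDR in the authors' deposited table was nevertheless as low as 3.25e-10. No listed CpG was without a methylated or without an unmethylated read.

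Listed CpGs less than 200 bp apart, called a site here, formed 162 groups, 44 in the first stretch and 118 in the second. A site held a median of 3 listed CpGs, 35 held 1 and the largest 47. By mean level 18 sites were below 20%, 56 intermediate and 88 above 80%. The sites below 20% were the most crowded, with a median of 8.5 listed CpGs against 3 in the other classes. The 12 sites with at least 20 listed CpGs hold 381 of the members, and all 10 of the largest lie in the second stretch.

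The largest site, 6815148 to 6816466, was nearly free of methylation in both treatments. Its 47 CpGs averaged 3.26% after betamethasone and 3.45% after saline at 18 to 190 reads. Only its first CpG was highly methylated, at 90.9% and 92.8%. The other 46 averaged 1.36% and 1.51%, and 27 of them rest on 1 methylated read. The 42 CpGs at 6753817 to 6754618 had a like makeup, with 40 that averaged 1.20% and 1.12%, of which 31 rest on 1 methylated read. Inside it stood 6754504, at 41.7% and 32.3%, and 6754574, at 88.6% and 98.0%. Their neighbours 1 bp away, read below as the other strand of the same CpG, were nearly unmethylated. Averaged over the treatments, 6754503 stood at 0.51% and 6754575 at 1.15%. Another unmethylated site, 24 CpGs at 6822181 to 6823014, averaged 1.06% and 1.51%, and 25 CpGs at 6894805 to 6895220 averaged 7.05% and 6.09% at 71 or more reads, 18 of them higher after betamethasone. The level was thus near the floor in both treatments at these 4 sites, with mean differences between -0.45 and 0.96 points.

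Other large sites, further along the second stretch, were almost fully methylated. The 33 CpGs at 6968013 to 6968378 averaged 91.9% after betamethasone and 92.4% after saline, and the 31 at 6973738 to 6974194 averaged 90.2% and 91.3%. Between them, the 27 CpGs at 6972892 to 6973419 averaged 46.9% and 47.7%, 319 bp before the start of the latter. Along that site the levels fell and rose again in both treatments, between 13.5% and 82.5% after betamethasone and between 20.3% and 83.7% after saline. Of its 27 CpGs 11 were higher and 16 lower.

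Of the 10 largest sites, 3 had mean differences above 2 points in size. At 6965470 to 6965942, 39 CpGs averaged 22.7% after betamethasone and 18.1% after saline (4.56 points, SD 10.6), with 26 higher and 13 lower. That difference was uneven in depth: the 13 CpGs with a lesser coverage of 10 to 18 reads averaged 40.0% and 28.7% (11.4 points), and the 26 with at least 43 reads 14.0% and 12.8% (1.16 points). At 6958098 to 6958877, 27 CpGs averaged 41.0% and 36.4% (4.56 points, SD 10.8), with 18 higher and 8 lower and as few as 10 reads. At 6952661 to 6953769, 42 CpGs averaged 28.2% and 30.9% (-2.65 points, SD 10.8). Over all 29 sites with at least 10 listed CpGs the mean difference lay between -2.76 and 4.85 points.

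The site of 42 CpGs at 6952661 held the longest unbroken run of 1 direction among the 580 such runs within sites. Its first 4 CpGs, 6952661 to 6952716, were all higher after betamethasone (68.6% against 53.8%, 14.8 points, SD 9.39). The next 15, over 143 bp at 6952825 to 6952967, were all lower, at 34.5% against 46.9% (-12.4 points, SD 4.40), with differences between -6.52 and -20.96 points. The remaining 23 averaged 17.1% and 16.5% with 12 higher and 11 lower. Coverage in the run was 11 to 60 reads for betamethasone and 11 to 58 for saline, and 1 of its 15 CpGs had a first p-value under 0.05 in the authors' deposited table. CpGs of a run can lie on the same reads of the same animals, and the run was picked after its values were seen. The next longest run, 11 CpGs at 6965572 to 6965629, was higher by a mean of 3.45 points (13.1% against 9.65%). Runs of at least 8 CpGs numbered 6, of which 4 were higher and 2 lower.

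**Figure D3:**
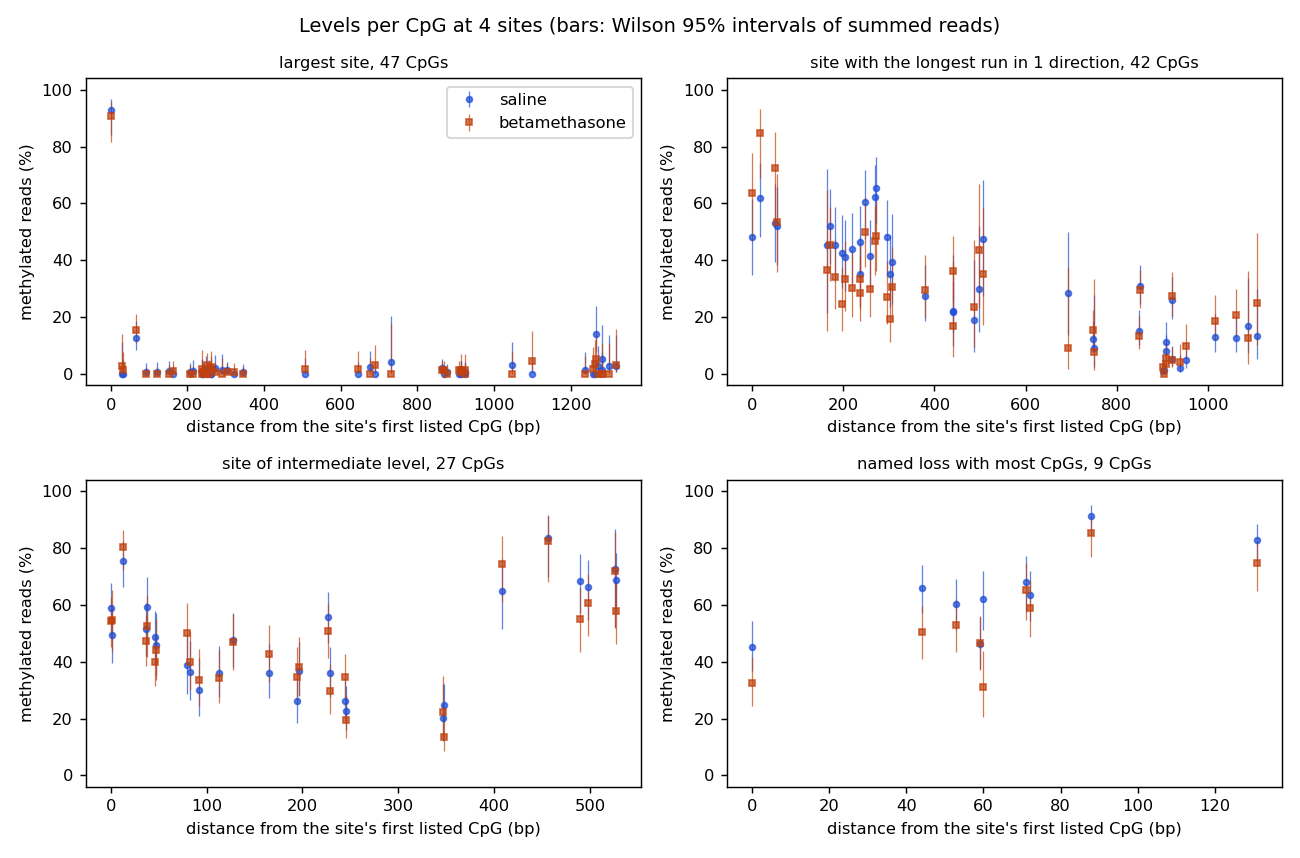
Methylated reads in percent per listed CpG at 4 sites of the second stretch, against distance in bp from the site's first listed CpG. Blue circles are saline, orange squares betamethasone, and bars are Wilson 95% intervals of the summed reads, which cover counting error only. The largest site (47 CpGs) is near 0% after its first CpG, the site of 42 CpGs holds the run of 15 lower CpGs, the site of 27 CpGs dips and rises in both treatments, and 8 of 9 CpGs of the last site are lower after betamethasone.

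Few sites held a single direction. Of the 102 sites with at least 3 listed CpGs, 92 held members of both directions, 7 had all CpGs lower and 3 all higher, and none of these 10 sites had more than 4 CpGs. Among the 60 sites with at least 3 CpGs and at least 20 reads at every CpG, the largest mean loss was at 6687243 to 6687292, where 3 CpGs averaged 81.9% after betamethasone and 91.9% after saline (SD of the difference 9.99), with single differences between -1.05 and -20.8 points. Of the 5 largest mean losses, the one with most CpGs was at 6811289 to 6811420: 8 of 9 CpGs were lower, with means of 55.4% and 65.2% (-9.84 points, SD 9.35) at 58 to 119 reads. There the levels after betamethasone ran from 31.0% to 85.6% and after saline from 45.4% to 91.3%. Smaller losses were seen at 6359441 to 6359470 in the first stretch (-7.71 points), at the very end of the second stretch, 6977705 to 6977785 (-7.43 points), and at the weakly methylated 6835582 to 6835616 (11.6% against 18.6%, -7.08 points).

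Among the 60 sites with at least 3 CpGs and at least 20 reads at every CpG, the largest mean gains were smaller than the largest mean losses. The 4 CpGs at 6808422 to 6808598 were all higher after betamethasone, at 88.6% against 82.9% (5.66 points, SD 3.56) and 88 to 115 reads. Their single levels were 95.7%, 87.4%, 83.7% and 87.5% after betamethasone and 92.0%, 77.0%, 77.4% and 85.2% after saline. This site lies 2691 bp before the loss at 6811289. The largest mean gain under the same limits was 6.04 points at 6899555 to 6899590, over 3 CpGs with 22 to 28 reads and 1 of them lower. The other named gains were 4.94 points at 6945838 to 6946088 (4 of 6 CpGs higher), 3.23 points at 6908335 to 6908591 (4 of 5) and 3.07 points at 6677255 to 6677364 (2 of 3). All 10 sites were picked for the size of their difference. Among the 29 sites with at least 10 listed CpGs, at any depth, the largest mean gain (4.85 points) exceeded the largest mean loss (-2.76 points).

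Among single CpGs with at least 20 reads in both treatments, the largest loss was at 6811349, inside the site of 9 CpGs. After betamethasone 31.0% of 58 reads were methylated (Wilson 95% interval 20.6% to 43.8%) and after saline 62.2% of 82 (51.4% to 71.9%), a difference of -31.2 points with a first p-value of 0.00107 in the authors' deposited table. Its neighbour 1 bp away, 6811348, had 46.6% of 103 reads and 46.4% of 112, a difference of 0.17 points and a first p-value of 0.98 in the authors' deposited table. The next losses were -26.2 points at 6859928 (31.0% of 42 reads against 57.1% of 63), -21.3 at 6449827, -21.0 at 6952957 inside the run of 15, and -20.8 at 6687292. All of these losses were picked for the size of their difference, so the intervals describe counting error and are no test of it.

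The largest gain among these deeper CpGs was at 6947075, with 91.3% of 23 reads after betamethasone (73.2% to 97.6%) and 62.2% of 45 after saline (47.6% to 74.9%), 29.1 points. At 6927516 the levels were 90.8% of 65 reads (81.3% to 95.7%) and 65.4% of 78 (54.3% to 75.0%), 25.4 points, with a first p-value of 0.00131 in the authors' deposited table. The position 1 bp away, 6927517, had 71.6% and 71.5%, a difference of 0.046 points. The other gains were 23.2 points at 6863251, 22.8 at 6952678 and 21.7 at 6859879. Next to 6863251, position 6863250 differed by -4.44 points, and next to 6859879, position 6859878 differed by 9.94 points. The gain at 6859879 lies 49 bp from the loss at 6859928. Each was over 20 points in size, with counting SEs of 9.13 and 9.47 points. These gains and that loss were picked for the size of their difference, so the intervals describe counting error and are no test of it.

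The authors' first p-value was under 0.05 at 45 members, or 4.26%, against 5.74% of all 2005 listed CpGs and 7.38% of those outside the stretches. Of the 45, 21 were higher and 24 lower. Over all 2005 listed CpGs, 56 (2.79%) were under 0.05 and higher and 59 (2.94%) under 0.05 and lower. In the authors' deposited table the smallest first p-value of the stretches was 0.000332, at 6816823, where 4.19% of 167 reads were methylated after betamethasone and 17.2% of 145 after saline (-13.0 points). The position 1 bp away, 6816824, had 3.30% and 5.36%, a difference of -2.06 points. Position 6816823 lies 357 bp after the end of the largest unmethylated site. In the first stretch the smallest was 0.00338 in the authors' deposited table, at 6162318, with 99.1% of 113 reads against 91.5% of 117.

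The deposited FDR did not follow the first p-value. In the authors' deposited table the FDR was under 0.001 at 746 members (70.6%), against 45.7% of the whole table and 18.0% of the CpGs outside the stretches. The lowest, 1.32e-11, was shared by 7 CpGs, among them 6949700, whose levels were 91.0% of 67 reads and 88.5% of 78 and whose first p-value in the authors' deposited table was 0.609. Of the 436 members with a first p-value above 0.5 in the authors' deposited table, 304 had an FDR under 0.001. Over the 1057 CpGs, which share animals and often reads, Spearman's rho between the size of the difference and the first p-value was -0.57, and between the size of the difference and the FDR 0.045. Across the same CpGs, rho with the FDR was 0.056 for the first p-value and 0.999998 for the second p-value, in the authors' deposited table.

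The FDR changed smoothly along the scaffold. Over 895 pairs of adjacent listed CpGs of a site, rho between the 2 neighbours was 0.991 for the FDR and for the second p-value, and 0.094 for the first p-value, in the authors' deposited table. In 365 of these pairs (40.8%) the FDR was identical. These are descriptions of neighbours that share reads. The sources used here do not say how the authors computed the second p-value, and its part in the length of the stretches was not tested.

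**Figure D4:**
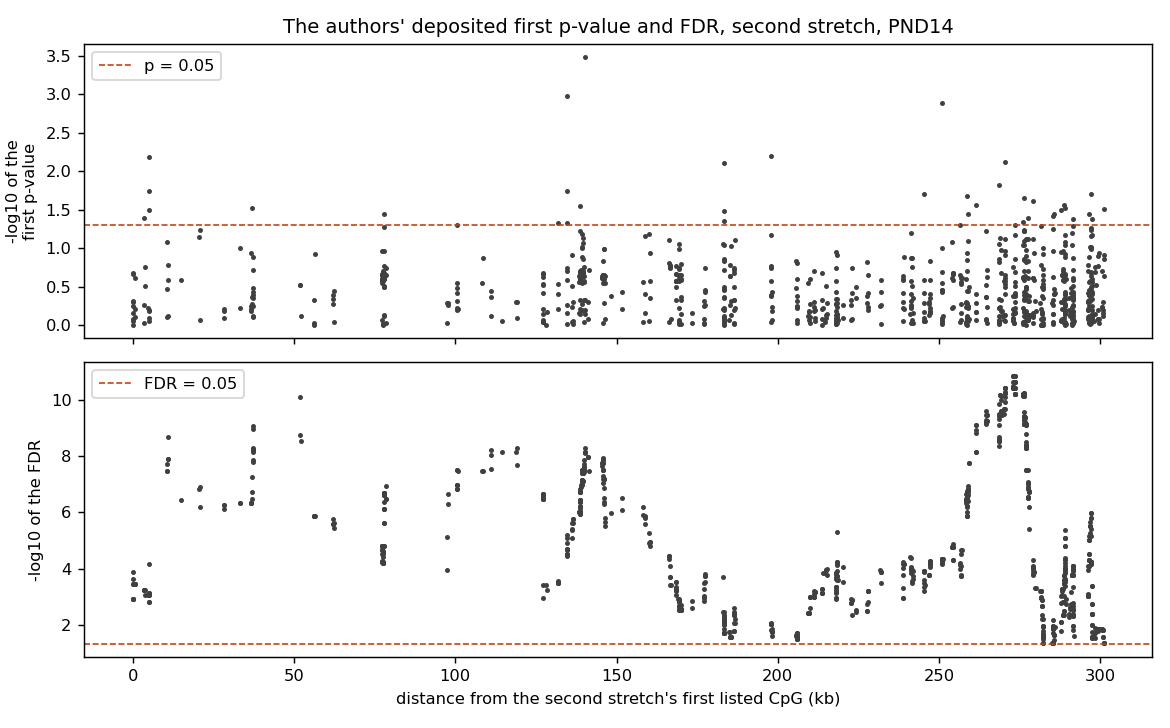
The authors' deposited first p-value (top) and FDR (bottom), both as -log10, for the 923 listed CpGs of the second stretch against distance in kb from its first listed CpG. Dashed lines mark 0.05. The first p-values scatter between neighbours, mostly below the line (38 of 923 lie above it). The FDR follows a curve with peaks and troughs that stays above its line.

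Positions 1 bp apart were read as the 2 strands of 1 CpG. With each position in at most 1 pair, they gave 151 pairs. Their levels went together, with a Pearson's r of 0.93 over the 151 pairs, and a median gap of 2.64 points. The treatment differences did not: r was -0.0050, and 75 pairs had the same direction, 74 opposite directions and 2 an equal value. Of 3 pairs in which both positions differed by at least 10 points, 1 had the same direction. In 9 pairs the mean levels were at least 20 points apart. The widest gaps were at 6754574 and 6754575 (93.3% and 1.15%) and at 6845969 and 6845970 (1.89% and 94.1%), where both treatments showed the same contrast between the positions. Across all 1057 CpGs the levels of the 2 treatments had an r of 0.977, and across the 162 sites 0.980.

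The newborn animals, which took no part in choosing the stretches, had no listed CpG inside them. The PND1 table lists 132 CpGs on scaffold_53, 108 before the first stretch and 24 after the second. The nearest lie at 5103338, 814846 bp before, and at 7199765, 221980 bp after. The PND1 run closest before the stretches (gaps under 500000 bp), 97 CpGs at 3965510 to 5103338, averaged 86.9% after betamethasone and 88.6% after saline (-1.64 points, SD 8.36), with 36 higher, 59 lower and 2 equal. Of these 97 CpGs 79 were above 80% and 0 below 20%, and the PND14 table lists 0 CpGs in that interval. The first PND1 site after the stretches, 10 CpGs at 7199765 to 7200105, averaged 55.7% and 50.3% (5.42 points, SD 5.68), with 8 of 10 higher. No CpG of any scaffold was listed at both ages. A CpG that is not listed at an age may have been covered and not called, or not covered, so levels of the stretches at PND1 are not analysed here and the difference between the ages was not tested.

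**Figure D5:**
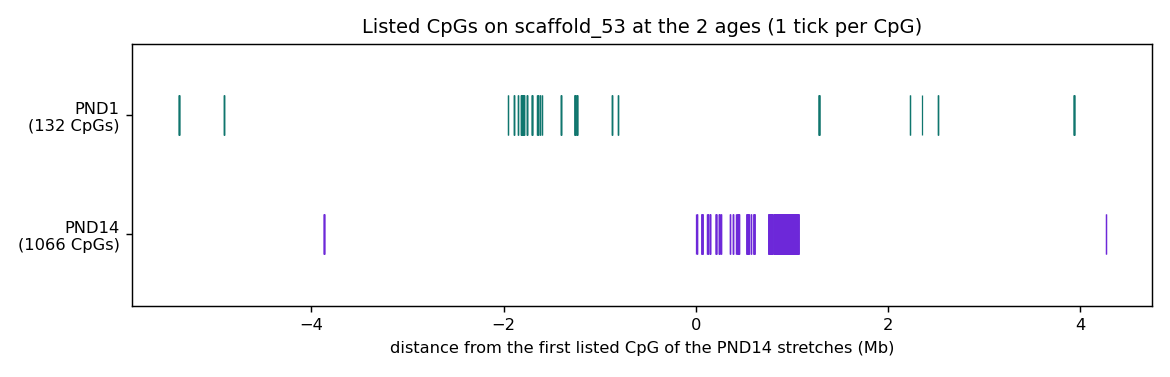
Listed CpGs on scaffold_53 in the PND1 table (132, top row) and the PND14 table (1066, bottom row), 1 tick per CpG, against distance in Mb from the first listed CpG of the stretches. The PND14 ticks fill the 2 stretches and the PND1 ticks lie on either side of them, with none inside.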

How the data were processed

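The submitters' processing notes name SAMtools 1.9, Bowtie2 2.3.4.3, Bismark 0.16.0 and Trim Galore. Each library took 100 ng of DNA through the EpiTect bisulfite kit and the Ovation RRBS kit, per the labels' protocols. Not given in the sources used here are the genome build, the tool that called the CpGs, the filters it applied and the base from which positions count. Positions are printed as deposited. Per the file headers, the authors deposited the read coverage and the count of methylated reads under each treatment code, with the methylated fraction (beta value) of case and control. Beside them stand 2 p-values, called first and second here in the order of the deposited columns, and an FDR. The PND14 table also holds the authors' deposited difference in percentage points (other unit), which equals the difference of the fractions.

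Levels, differences and counting SEs were recomputed from methylated counts and coverage. Sites join listed CpGs less than 200 bp apart. Named were the 10 sites with most CpGs, the 5 largest mean gains and 5 largest losses among sites with at least 3 CpGs and 20 reads throughout, the 5 largest gains and losses among single CpGs with at least 20 reads, and the edges. CpGs with the smallest first p-values, runs and pairs 1 bp apart were chosen after their values were seen. The members and all rules were chosen with earlier results of these data known. No test over animals was possible, and Fisher's exact test was run as an alternative over the whole table. Wilson 95% intervals of single CpGs and SEs cover counting error only, since reads are not independent molecules or animals. The scripts were tested on simulated data. Software was statsmodels 0.14.6, SciPy 1.17.1, pandas 2.3.3, NumPy 2.4.6 and Matplotlib 3.10.9 under Python 3.11.15.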

Additional observations from a re-analysis of the deposited data

How the results depend on the processing

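No paired analysis was possible because the tables hold 1 value per treatment and no column carries a replicate number. For the same reason no animal could be left out in turn. Of 31 alternative values, 11 stayed near the value in the report. Near means within its 95% interval or, for counts of CpGs or sites, a change of less than 1.5 times. The interval of mean levels and differences covers counting error. That of the share of higher CpGs, 46.4% to 52.4%, treats CpGs as independent, although neighbours share reads and animals. With at least 20 reads in both treatments the mean level was 55.0% after betamethasone and 55.5% after saline (-0.51 points), and with at least 50 reads 50.7% and 51.2% (-0.48 points, 654 CpGs). With each read weighing the same it was 50.1% and 50.6% (-0.50 points), and with each site weighing the same 69.2% and 69.8% (-0.59 points). Summing reads of positions 1 bp apart gave -0.016 points over 906 CpGs, so the sign of the mean difference rests on these choices. The first stretch alone, an alternative added after the data were seen, had -0.78 points. CpGs at least 10 points higher numbered 35 at 20 reads and 12 at 50 reads, and those at least 10 points lower 59 and 31. With class limits of 10% and 90%, 22.9% of the CpGs were low, 48.0% intermediate and 29.1% high. At a site gap of 1000 bp there were 95 sites, and at 100 bp 218. The share of higher CpGs stayed between 47.5% and 49.4% under each alternative run for it, among them leaving out the CpGs that rest on 1 read. As a count in place of the first p-value, and not as a test of the treatments, since the CpGs were selected on this contrast and the reads are pooled over animals, a two-sided Fisher's exact test on summed reads gave 33 CpGs at an unadjusted p under 0.05 (3.12%, against 4.69% of the whole table), of which 25 were shared with the 45. After Benjamini-Hochberg adjustment over the whole table, 2 of its 2005 CpGs and 0 of the stretches' CpGs were under 0.05. CpGs that were not called are missing from that adjustment, so these counts too are no test of the treatments.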
